A study of Homo sapiens with 6 samples.

Results

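Ribosome biogenesis genes encode the factors that make ribosomal RNA (rRNA) in the nucleolus and assemble it with ribosomal proteins. The 40 genes described here were taken by symbol from a named list, and all 40 occurred once in each of the 2 deposited tables, among 33095 genes. The cells were MM.1S, an established human cell line from multiple myeloma, which is a malignancy of plasma cells. They were transduced with lentivirus carrying IRF3 shRNA 1, IRF3 shRNA 2 or a scramble control hairpin, with 2 poly(A) RNA libraries in each of the 3 groups. IRF3 is a transcription factor activated by nucleic acid sensing. No untransduced cells are among the groups, so every library comes from cells that carry a hairpin. All 9 plasma cell markers checked were present, at 243 to 7005 mean normalised reads per kilobase of exon, against 0.142 to 20.1 for the 14 markers of B, T, myeloid, stromal and epithelial cells that the tables list. Of those 9, shRNA 1 libraries had 6 lower and 1 higher and shRNA 2 libraries 7 lower and 1 higher, per the authors' deposited tables, and their part in the results below was not tested.

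Ribosome assembly starts when RNA polymerase I transcribes the rRNA precursor. Small nucleolar ribonucleoproteins (snoRNPs) then modify it, and separate sets of factors fold, cut and export the small and large subunit precursors. The transcription factor MYC, which myeloma cells commonly express strongly, is a known activator of many of these genes and binds the E-box sequence CACGTG.

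IRF3 itself stood at -1.53 ± 0.10 (log2 fold change over scramble ± SE) with shRNA 1 in the authors' deposited tables, where DESeq2 gave an adjusted p of 8.45e-46. The authors' deposited table puts it at -0.18 ± 0.10 with shRNA 2 (DESeq2 adjusted p of 0.181), so that a fall of the target was not shown in the libraries labelled shRNA 2. MYC rose slightly with shRNA 1, at 0.22 ± 0.08 (0.0378), and was at 0.09 ± 0.08 with shRNA 2 (0.523), the brackets holding the DESeq2 adjusted p of the authors' deposited tables. The call of MYC with shRNA 1 is lost at an adjusted p below 0.01 and when adjusted over every gene with a p-value. Values of single libraries were not analysed here and the depth of each library is unknown. Group means below were reconstructed from the authors' mean over all libraries and both fold changes, and they carry no SD. Nothing in the labels tells separate cultures from repeat libraries within a group, and p-values therefore measure a spread that may be technical.

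Promoter windows, which run from 250 bases before to 50 bases after an annotated start, were matched for 33 of the 40 genes (RefSeq sequences, GRCh38.p14). The palindromic E-box letters CACGTG were found in 16 of these 33 genes, 48.5%, against 12.8% of 10043 genes tested with shRNA 1 that had a window and 8.77% of all 27305 genes with one. Letters in any window of a gene counted for that gene, and some genes, such as DDX21, have more than 1 annotated start. The number of windows per gene was not compared between the 33 genes and the background. Of the 17 matches, 15 began within 50 bases of the annotated start of their own window. The sequences are shown for the 6 E-box genes that passed below against scramble, or between the hairpins with the summed SE, 5′ to 3′ on the strand of the gene, with the E-box in capitals.
DDX21 (chr10:68956604-68956633, plus strand): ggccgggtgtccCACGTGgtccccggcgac
LYAR (chr4:4290068-4290097, minus strand): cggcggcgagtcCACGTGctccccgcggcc
PES1 (chr22:30591880-30591909, minus strand): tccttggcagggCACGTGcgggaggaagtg
NOP2 (chr12:6568242-6568268, minus strand): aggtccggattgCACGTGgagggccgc
UTP20 (chr12:101280083-101280112, plus strand): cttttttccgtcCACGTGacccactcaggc
WDR43 (chr2:28894658-28894687, plus strand): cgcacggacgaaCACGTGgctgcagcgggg

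The matches began at -31 in DDX21, -64 in LYAR, 14 in PES1, 36 in NOP2, -10 in UTP20 and 4 in WDR43. Each was counted from the annotated start of the window that held it, and DDX21 has another annotated start further upstream. The related letters CACGCG, or CGCGTG on the other strand, occurred in 10 of the 33 genes and in 22.3% of the genes tested. GAAA repeated after any 2 bases, a form of the site bound by interferon regulatory factors, was found on either strand in 1 of the 33, the RNA polymerase I gene POLR1B, against 4.17% of the genes tested. TATAAA was found on either strand in 1 of the 33, UTP20 (8.25% of the genes tested). CCAAT, also searched on both strands, was in 12 of the 33 (43.4% of the genes tested). No match of these other motifs overlapped a CACGTG match in the 33 genes. The annotated starts are those of RefSeq, and for DDX21, LYAR, PES1, NOP2 and WDR43 they lie inside the gene as GENCODE 29 draws it.

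**Figure D1:**
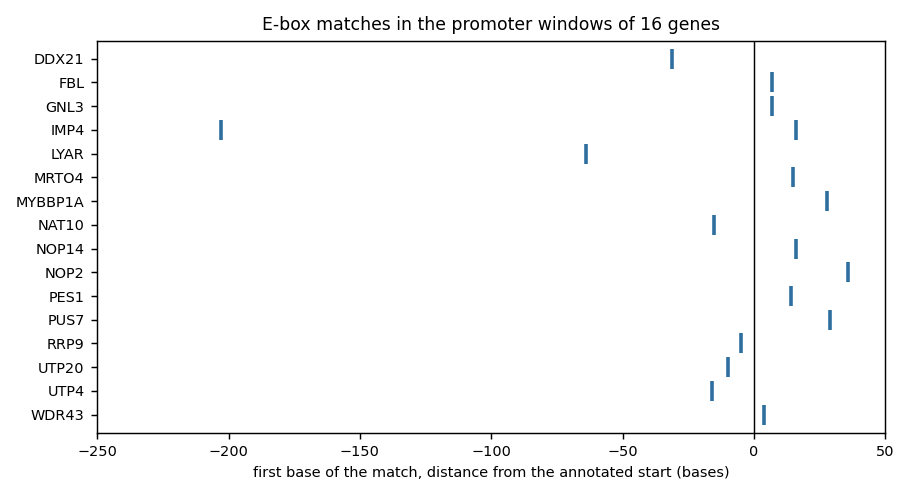
Position of each CACGTG match in the promoter windows of the 16 ribosome biogenesis genes that hold one, 1 gene per row. The x axis gives its first base, in bases from the annotated start (at 0) of the window that holds it. Of the 17 ticks, 15 lie within 50 bases of the start, and those of LYAR (-64) and IMP4 (-203, beside a match at 16) lie further upstream.

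Most of the 40 ribosome biogenesis mRNAs passed in neither comparison. With shRNA 1, 11 of the 40 genes passed at a DESeq2 adjusted p below 0.05 in the authors' deposited table, 3 of them higher (9.80% of all genes tested) and 8 lower (14.8% of all genes tested, and 20.9% of those at least as abundant as the lowest of the 40). This share, 27.5%, was near the 24.6% called among all 14488 genes tested and below the 33.5% among the 8979 genes with a mean at or above that of the lowest of the 40. With shRNA 2, 6 of the 40 passed, against 29.0% of all 17054 genes tested and 42.5% of those 8979 genes, per the authors' deposited table. They were 1 higher (10.9% of all genes tested) and 5 lower (18.1% of all genes tested and 27.7% of the 8979). A further count, 27 of the 40, passed in neither comparison, against 53.9% of all genes tested. The median log2 fold change of the 40 was -0.04 with shRNA 1 (-0.03 over all genes tested) and 0.01 with shRNA 2 (-0.0026 over all genes tested), from the authors' deposited tables. Rises and falls cancel in these medians. Taken without sign, the median with shRNA 1 was 0.193, against 0.217 for the 8979 genes and 0.249 for all genes tested. With shRNA 2 these were 0.140, 0.257 and 0.329. Recentred on the median of genes with a mean of at least 50, the calls were 5 higher and 6 lower with shRNA 1 and 2 higher and 3 lower with shRNA 2. Adjusted over every gene with a p-value, 7 passed with shRNA 1.

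The 40 transcripts were abundant and their fold changes had small errors. Their mean normalised count ran from 318 (NOC4L) to 19363 (NPM1), with a median of 2758 that exceeded 87.8% of the genes tested with shRNA 1. The SE of the log2 fold change had a median of 0.10 in both of the authors' deposited tables, with a range of 0.07 to 0.20. The 95% interval lay within 1.5-fold of the scramble level for 36 of the 40 genes with shRNA 1 and 37 with shRNA 2, and for 34 in both. Among the 8979 genes with a mean at or above that of NOC4L, 65.9% met this with shRNA 1 and 58.7% with shRNA 2. The median mean of those genes was 1193, below that of the 40, so these shares are not matched for abundance. A change of 1.5-fold or more was estimated for 1 of the 40 with shRNA 1, DDX21, and for 0 with shRNA 2. Summed over the 40 genes, the reconstructed means were 142332 in shRNA 1 libraries and 139894 in shRNA 2 libraries, against 148680 in scramble libraries. These sums were 0.568% of all normalised reads with shRNA 1 and 0.569% with shRNA 2, against 0.582% with scramble. In bulk libraries, fewer cells that express a gene and less of its RNA per cell cannot be told apart.

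**Figure D2:**
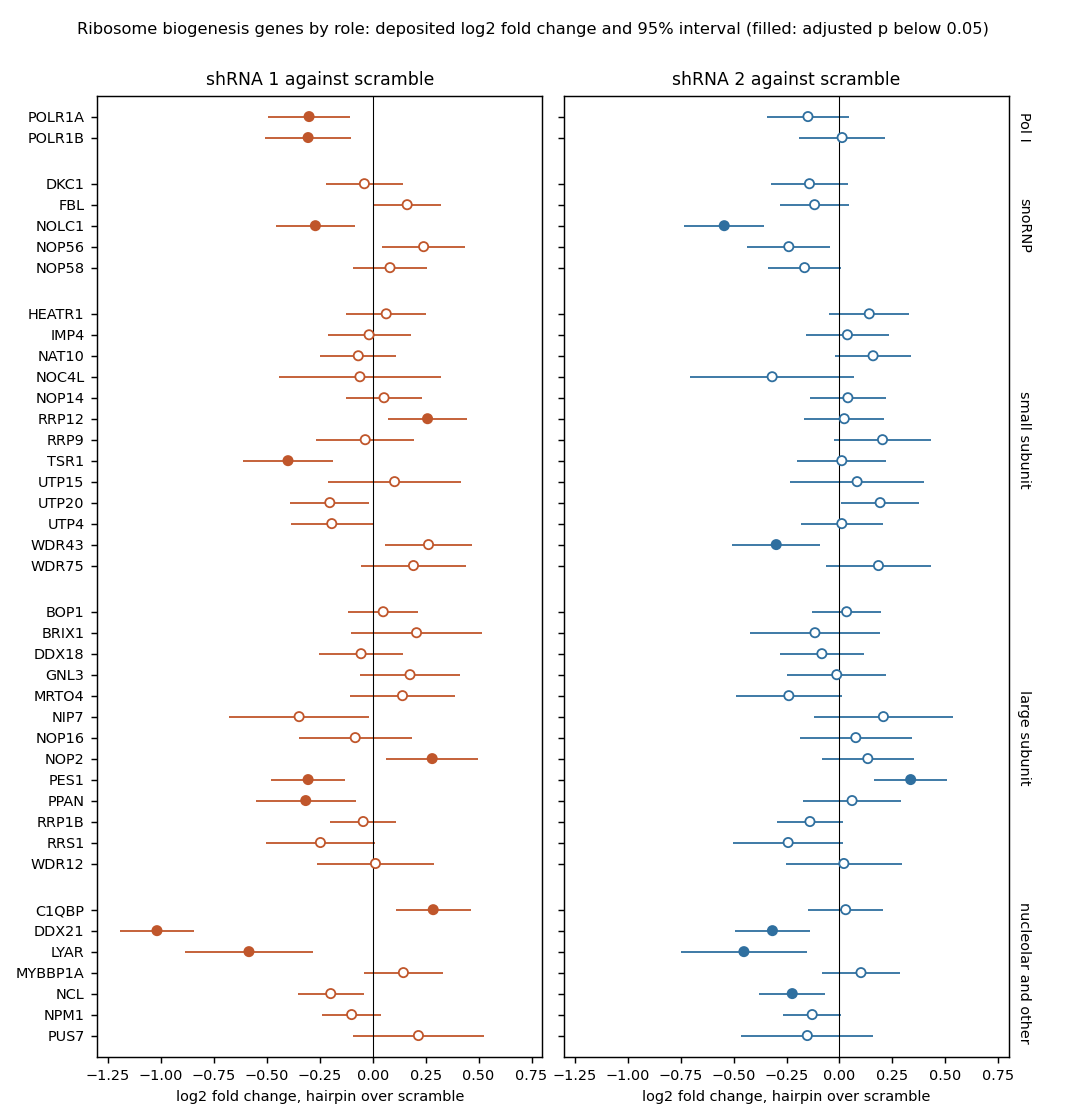
Log2 fold change over scramble (points) with 95% interval (lines) for the 40 ribosome biogenesis genes, grouped by role, with shRNA 1 on the left and shRNA 2 on the right, from the authors' deposited tables. Filled points passed at an adjusted p below 0.05, which 11 did with shRNA 1 and 6 with shRNA 2, and DDX21 with shRNA 1 (-1.02) lies furthest from 0.

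A total of 3 genes fell with both hairpins: DDX21, LYAR and NOLC1. Genes passing in both comparisons in 1 direction made up 9.50% of all genes tested. The comparisons share the scramble libraries, so each gene's values are given side by side. DDX21 (ENSG00000165732, chromosome 10, 68956128 to 68985073, GRCh38), an RNA helicase that binds rRNA precursors and snoRNAs, had a reconstructed mean normalised count of 3358 in shRNA 1 libraries and 5463 in shRNA 2 libraries, against 6803 in scramble libraries. Both hairpin groups lay below scramble, with shRNA 1 the lowest. In the authors' deposited tables its log2 fold change was -1.02 ± 0.09 with shRNA 1 (DESeq2 adjusted p of 2.79e-27) and -0.32 ± 0.09 with shRNA 2 (0.00224). As ratios these were 0.494 (95% interval 0.437 to 0.558) and 0.803 (0.711 to 0.907) of the scramble level.

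LYAR (chromosome 4, 4267701 to 4290169), a zinc finger protein of the nucleolus that takes part in rRNA precursor processing, had reconstructed means of 519.5 in shRNA 1 and 569.7 in shRNA 2 libraries, against 778.9 in scramble libraries. The hairpin groups lay close together and below scramble. Its log2 fold changes in the authors' deposited tables were -0.58 ± 0.15 (DESeq2 adjusted p of 0.00116) and -0.45 ± 0.15 (0.0135). NOLC1 (chromosome 10, 102152176 to 102163871), also called Nopp140, is a chaperone of snoRNPs. Its reconstructed means were 5092 in shRNA 1 and 4213 in shRNA 2 libraries, against 6142 in scramble libraries, so that shRNA 2 was the lowest. The authors' deposited tables give it log2 fold changes of -0.27 ± 0.10 with shRNA 1 (DESeq2 adjusted p of 0.0236) and -0.54 ± 0.10 with shRNA 2 (2.16e-07). The call of NOLC1 with shRNA 1 was lost on recentring and when adjusted over every gene with a p-value.

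**Figure D3:**
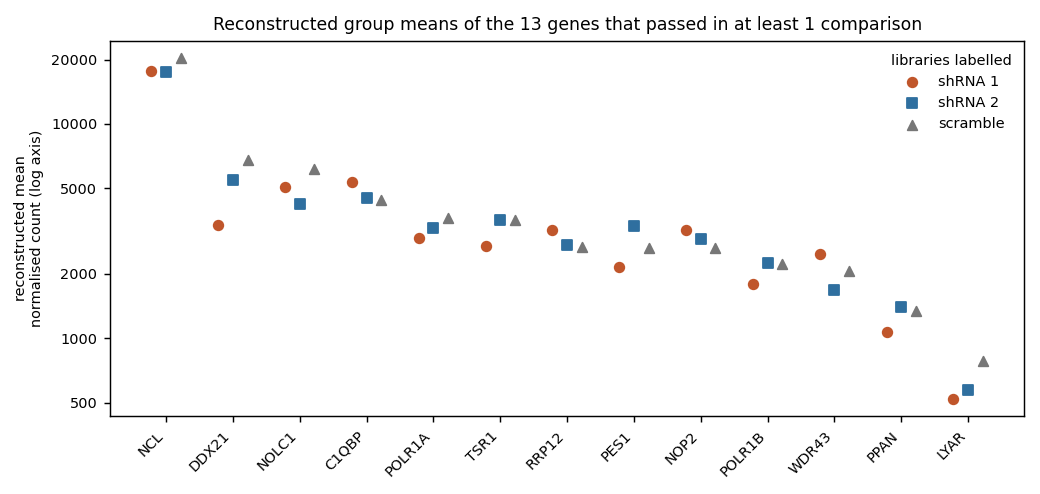
Reconstructed mean normalised count (log axis) in shRNA 1, shRNA 2 and scramble libraries for the 13 ribosome biogenesis genes that passed in at least 1 comparison, ordered by their scramble level. DDX21, NOLC1 and LYAR lie below scramble in both hairpin groups, and PES1 lies below it with shRNA 1 (2139 against 2642) and above it with shRNA 2 (3335).

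The 2 genes of the rRNA synthesis machinery in the list, POLR1A and POLR1B, encode the pair of large subunits that form the active centre of RNA polymerase I, and both fell with shRNA 1. Of all genes tested, 14.8% were called lower with shRNA 1. Among 20 other rRNA synthesis genes, 1 was called higher and 1 lower with shRNA 1, per the authors' deposited tables. With shRNA 2 these were 1 higher and 3 lower. The median log2 fold changes of the 20 were -0.04 and -0.13. POLR1A (chromosome 2, 86020216 to 86106155) had reconstructed means of 2948 in shRNA 1 and 3275 in shRNA 2 libraries, against 3630 in scramble libraries. For POLR1B (chromosome 2, 112541915 to 112577150) these were 1792 and 2233, against 2214 in scramble libraries. POLR1A had log2 fold changes of -0.30 ± 0.10 with shRNA 1 (DESeq2 adjusted p of 0.0137) and -0.15 ± 0.10 with shRNA 2 (0.289) in the authors' deposited tables. POLR1B was at -0.30 ± 0.10 (DESeq2 adjusted p of 0.0164) and 0.01 ± 0.10 (0.957), also in the authors' deposited tables. The shRNA 1 calls of both genes were lost at an adjusted p below 0.01. The difference between hairpins did not pass for either gene in the main z test (adjusted p of 0.508 for POLR1A and 0.101 for POLR1B). In the z test with an SE reconstructed without the shared scramble libraries, described below, POLR1B passed (adjusted p of 0.00725). POLR1A did not pass in that test (0.231).

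Of the snoRNP genes, NOLC1 fell in both comparisons, and the other 4 passed in neither. FBL (fibrillarin), the rRNA methyltransferase of box C/D snoRNPs, had reconstructed means of 6761 in shRNA 1 and 5567 in shRNA 2 libraries, against 6039 in scramble libraries. NOP56, a core scaffold protein of the same particles, was at 7661 and 5494, against 6485 in scramble libraries. NOP58, its partner, was at 3494 and 2946, against 3302 in scramble libraries. For these 3 genes the shRNA 1 mean was the highest of the groups and the shRNA 2 mean the lowest. With shRNA 1, the authors' deposited table gives FBL, NOP56 and NOP58 log2 fold changes of 0.16 ± 0.08, 0.24 ± 0.10 and 0.08 ± 0.09, with DESeq2 adjusted p-values of 0.146, 0.0617 and 0.579. With shRNA 2 the authors' deposited table gives -0.12 ± 0.08, -0.24 ± 0.10 and -0.16 ± 0.09, with DESeq2 adjusted p-values of 0.324, 0.0566 and 0.162. Recentred, NOP56 passed with shRNA 1. DKC1 (dyskerin), the pseudouridine synthase of box H/ACA snoRNPs, was at -0.04 ± 0.09 and -0.14 ± 0.09 in the authors' deposited tables, with DESeq2 adjusted p-values of 0.830 and 0.282.

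Small subunit factors were represented by 13 genes, of which 1 rose (RRP12) and 1 fell (TSR1) with shRNA 1 and 1 fell (WDR43) with shRNA 2, per the authors' deposited tables. TSR1 (chromosome 17, 2322503 to 2337507), which acts late in small subunit maturation, had reconstructed means of 2689 in shRNA 1 and 3574 in shRNA 2 libraries, against 3547 in scramble libraries. The shRNA 1 group stood below the others, at a log2 fold change of -0.40 ± 0.11 (DESeq2 adjusted p of 0.00160), and shRNA 2 was at 0.01 ± 0.11 (0.964), per the authors' deposited tables. TSR1 shares 20.7% of its exon bases with SRR on the opposite strand, which passed in neither comparison. The part of SRR reads in the TSR1 values was not tested. RRP12, which takes part in subunit export, had reconstructed means of 3189 in shRNA 1 and 2707 in shRNA 2 libraries, against 2665 in scramble libraries. Its log2 fold change was 0.26 ± 0.10 with shRNA 1 (DESeq2 adjusted p of 0.0320, a call lost when adjusted over every gene with a p-value) and 0.02 ± 0.10 with shRNA 2 (0.910) in the authors' deposited tables.

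WDR43 (chromosome 2, 28894643 to 28948222) belongs, with HEATR1, UTP4, UTP15 and WDR75, to a subcomplex that joins rRNA transcription to early processing. It had reconstructed means of 2476 in shRNA 1 and 1677 in shRNA 2 libraries, against 2063 in scramble libraries. The hairpin groups thus lay on opposite sides of scramble. In the authors' deposited tables its log2 fold change was 0.26 ± 0.11 with shRNA 1 (DESeq2 adjusted p of 0.0516) and -0.30 ± 0.11 with shRNA 2 (0.0204), and recentring gave a call with shRNA 1 and ended that with shRNA 2. Its partners HEATR1, UTP4, UTP15 and WDR75 had log2 fold changes of 0.06 ± 0.10, -0.19 ± 0.10, 0.10 ± 0.16 and 0.19 ± 0.13 in the authors' deposited table for shRNA 1. For shRNA 2 the authors' deposited table gives them 0.14 ± 0.10, 0.01 ± 0.10, 0.08 ± 0.16 and 0.18 ± 0.13, and none of these 4 passed in either comparison.

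The other 6 small subunit genes, UTP20, RRP9, IMP4, NOP14, NOC4L and the rRNA acetyltransferase NAT10, passed in neither comparison. UTP20, a large scaffold protein of the small subunit precursor, had reconstructed means of 2404 in shRNA 1 and 3161 in shRNA 2 libraries, against 2766 in scramble libraries, with log2 fold changes of -0.20 ± 0.10 and 0.19 ± 0.09 in the authors' deposited tables. After recentring, UTP20 passed with shRNA 2, and NAT10 did so when the median was taken over genes with a mean of at least 1000. The log2 fold changes of RRP9, IMP4, NOP14, NOC4L and NAT10 lay between -0.07 and 0.05 with shRNA 1 and between -0.32 and 0.20 with shRNA 2 in the authors' deposited tables. NOC4L, at -0.32 ± 0.20 with shRNA 2, was the least abundant of the 40 genes and had the widest interval in the authors' deposited table.

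Among the 13 large subunit factors, PES1 changed in both comparisons and in opposite directions, which 2.55% of all genes tested did. PES1 (ENSG00000100029, chromosome 22, 30576625 to 30607083), BOP1 and WDR12 form the PeBoW complex, which is needed to process the rRNA of the large subunit. PES1 had reconstructed means of 2139 in shRNA 1 and 3335 in shRNA 2 libraries, against 2642 in scramble libraries. The log2 fold change in the authors' deposited tables was -0.30 ± 0.09 with shRNA 1 (DESeq2 adjusted p of 0.00444) and 0.34 ± 0.09 with shRNA 2 (0.000872), ratios of 0.810 (95% interval 0.717 to 0.914) and 1.26 (1.12 to 1.42). BOP1 had reconstructed means of 5016 in shRNA 1 and 4961 in shRNA 2 libraries, against 4846 in scramble libraries. WDR12 had 1203 and 1210, against 1192 in scramble libraries. Neither partner passed, with ratios to scramble of 1.04 (0.924 to 1.16) and 1.02 (0.913 to 1.15) for BOP1 and 1.01 (0.834 to 1.22) and 1.01 (0.838 to 1.23) for WDR12, from the authors' deposited tables. PES1 shares 246 exon bases, 5.40% of its own, with TCN2 on the opposite strand, which was at 0.93 ± 0.12 with shRNA 1 and 0.13 ± 0.13 with shRNA 2 in the authors' deposited tables. Whether the counting used strand is not stated in the labels, and the part of TCN2 reads in the PES1 values was not tested.

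NOP2, an rRNA cytosine methyltransferase, rose with shRNA 1, and PPAN, an assembly factor, fell. For NOP2 the reconstructed means were 3201 in shRNA 1 and 2890 in shRNA 2 libraries, against 2634 in scramble libraries. The authors' deposited tables give it log2 fold changes of 0.28 ± 0.11 (DESeq2 adjusted p of 0.0458) and 0.13 ± 0.11 (0.421). PPAN had reconstructed means of 1072 in shRNA 1 and 1391 in shRNA 2 libraries, against 1335 in scramble libraries, with -0.32 ± 0.12 (DESeq2 adjusted p of 0.0368) and 0.06 ± 0.12 (0.790) in the authors' deposited tables. Both calls were lost when adjusted over every gene with a p-value, and that of PPAN also on recentring. More than 50% of the exon bases of each are shared with a readthrough or same-strand gene (54.4% for NOP2 with AC006064.6 and 56.0% for PPAN with PPAN-P2RY11), and the division of reads between them is an estimate.

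The remaining 10 large subunit genes passed in neither comparison. They were RRS1, BRIX1, MRTO4, NIP7, the GTPase GNL3 (nucleostemin), NOP16, RRP1B, the helicase DDX18 and the PeBoW partners BOP1 and WDR12. NIP7 was furthest from 0 with shRNA 1, at -0.35 ± 0.17 (DESeq2 adjusted p of 0.123), and stood at 0.21 ± 0.17 with shRNA 2, per the authors' deposited tables. NIP7 shares 20.2% of its exon bases with COG8 on the opposite strand. COG8 was at -0.02 ± 0.13 with shRNA 1 and 0.43 ± 0.13 with shRNA 2 in the authors' deposited tables. The part of COG8 reads in the NIP7 values was not tested. RRS1, which helps to place the smallest rRNA in the large subunit, was at -0.25 ± 0.13 and -0.24 ± 0.13 in the authors' deposited tables (DESeq2 adjusted p of 0.173 and 0.169).

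Of the 7 remaining genes, nucleolar and other, DDX21 and LYAR fell in both comparisons, C1QBP rose with shRNA 1 and NCL fell with shRNA 2. NCL (nucleolin, chromosome 2, 231453531 to 231483641), an abundant RNA-binding protein of the nucleolus, had reconstructed means of 17758 in shRNA 1 and 17455 in shRNA 2 libraries, against 20372 in scramble libraries. Both hairpin groups were lower by a like amount. The authors' deposited tables give log2 fold changes of -0.20 ± 0.08 with shRNA 1 (DESeq2 adjusted p of 0.0528) and -0.22 ± 0.08 with shRNA 2 (0.0214, a call lost on recentring). C1QBP, a multifunctional protein found mainly in mitochondria, had reconstructed means of 5381 in shRNA 1 and 4504 in shRNA 2 libraries, against 4414 in scramble libraries. It was at 0.29 ± 0.09 with shRNA 1 (DESeq2 adjusted p of 0.00887) and 0.03 ± 0.09 with shRNA 2 (0.872) in the authors' deposited tables.

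NPM1 (nucleophosmin), a histone and ribosome chaperone, was the most abundant of the 40 per kilobase of exon as well, at 5058 mean normalised reads. Its reconstructed means were 19038 in shRNA 1 and 18656 in shRNA 2 libraries, against 20396 in scramble libraries, ratios of 0.933 (95% interval 0.848 to 1.03) and 0.915 (0.831 to 1.01) from the authors' deposited tables. GENCODE 29 names 45 pseudogenes of NPM1, with which its reads may be shared. MYBBP1A, a nucleolar cofactor of transcription, was at 0.14 ± 0.09 and 0.10 ± 0.09, and PUS7, a pseudouridine synthase of tRNA and mRNA, at 0.22 ± 0.16 and -0.15 ± 0.16 in the authors' deposited tables, and neither gene passed in either comparison.

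The hairpins were compared directly by a two-sided z test of the difference of the log2 fold changes, adjusted over 14488 genes. In all, 6 of the 40 genes differed, against 24.0% of all genes tested and 33.1% of the 8979 genes at or above the lowest of the 40. They were 4 higher with shRNA 2 than with shRNA 1 (10.1% of all genes tested) and 2 lower (13.8% of all genes tested). DDX21 was higher with shRNA 2 by 0.70 ± 0.13 on the log2 scale (adjusted p of 6.91e-07), PES1 by 0.64 ± 0.13 (6.10e-06), TSR1 by 0.41 ± 0.15 (0.0315) and UTP20 by 0.39 ± 0.13 (0.0174). WDR43 was lower with shRNA 2, at -0.56 ± 0.15 (adjusted p of 0.00151), as was NOP56, at -0.48 ± 0.14 (0.00477). WDR43 and NOP56 are among 8 of the 40 genes that contain snoRNA genes with SNORA or SNORD names on the same strand, with NCL, NOP58, GNL3, DKC1, PPAN and TSR1. Of these 23 snoRNA genes, 15 lie in introns only and 8 touch an annotated exon, among them those in NOP56 and DKC1. The snoRNA genes RF01183 and RF00569 in GNL3 and RF00575 in NOP58 also share exon bases with their host. They lack such names and are not in this count. The levels of those snoRNAs were not analysed here.

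The shared scramble libraries cancel in this difference, and the summed SE is therefore too large. With an SE reconstructed without them, 16 of the 40 genes differed, 8 in each direction, including all 6 above, against 39.4% of all genes tested and 50.2% of the 8979, so that the share of the 40 was near the first and below the second. The 10 added were NIP7, PPAN, POLR1B and NAT10, which were higher with shRNA 2, and RRP12, NOP58, C1QBP, NOLC1, FBL and MRTO4, which were lower. On this SE FBL, NOP56 and NOP58 all passed, at differences of -0.28, -0.48 and -0.25 (adjusted p of 0.00276, 1.12e-05 and 0.0162). NOLC1, their chaperone, was at -0.27 (0.0144). With the same SE the 95% interval for DKC1, from -0.29 to 0.08, and that for the PeBoW partner BOP1, from -0.18 to 0.15, included 0.

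**Figure D4:**
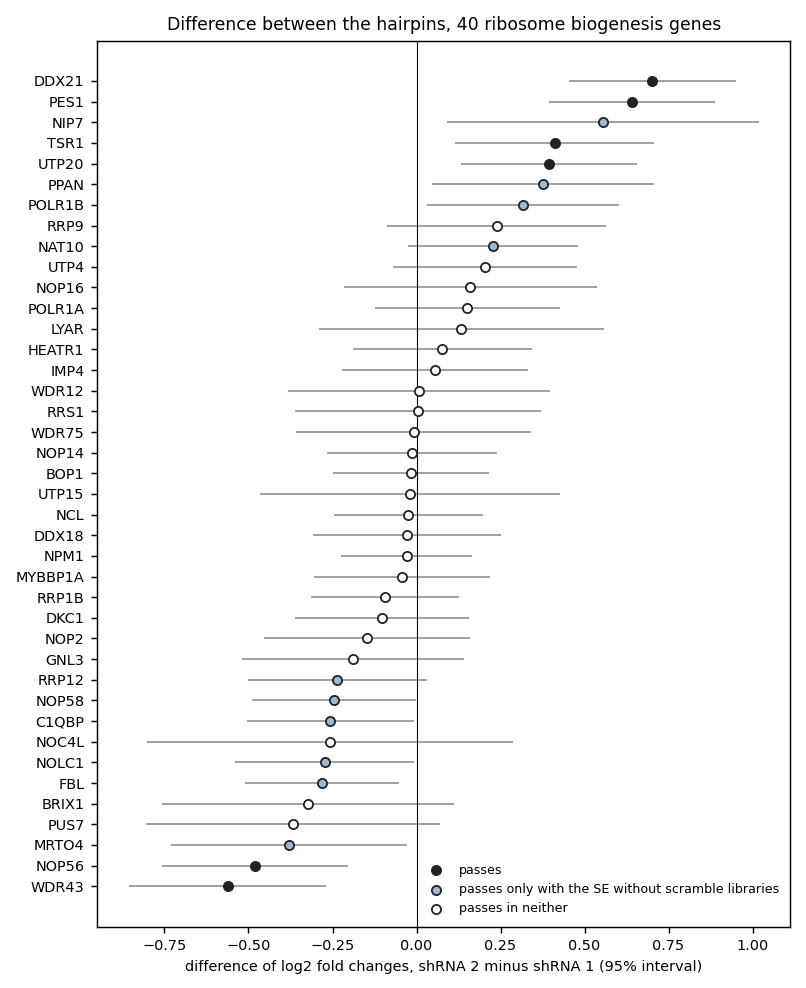
Difference of the log2 fold changes, shRNA 2 minus shRNA 1, with the 95% interval from the summed SE, for the 40 ribosome biogenesis genes ordered by size. Black points passed at an adjusted p below 0.05 (4 above 0 and 2 below), grey-blue points passed only with the SE reconstructed without the scramble libraries (10 genes), and open points in neither.

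A further 172 genes of the pathway, which belong to the same steps and to the exosome and RNase P, were also followed. In the authors' deposited tables, 10 of them rose and 19 fell with shRNA 1, whereas 6 rose and 30 fell with shRNA 2. The lower calls were 11.0% of the 172 with shRNA 1, below the 14.8% of all genes tested. With shRNA 2 they were 17.4%, near the 18.1% of all genes tested. Both lay below the shares of the 8979 genes with a mean at or above that of NOC4L, 20.9% and 27.7%. The higher calls were 5.8% and 3.5% of the 172, against 9.80% and 10.9% of all genes tested. Their median log2 fold changes were -0.01 and -0.10. Recentred on the median gene the counts were 16 and 16 with shRNA 1 and 14 and 22 with shRNA 2. In the large subunit group, the methyltransferase FTSJ3 rose (0.33 ± 0.10 and 0.41 ± 0.10), and URB1 (-0.84 ± 0.10 and -0.31 ± 0.10) and NOC3L (-0.47 ± 0.13 and -0.40 ± 0.13) fell with both hairpins in the authors' deposited tables. In the small subunit group, NOP9 (-0.93 ± 0.14 and -0.43 ± 0.13) and UTP23 (-0.57 ± 0.18 and -0.47 ± 0.18) fell with both, and NOB1, the nuclease that completes the small subunit rRNA, was at 0.26 ± 0.10 and 0.34 ± 0.10 and passed with shRNA 2, per the authors' deposited tables.

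RUVBL2, an ATPase of the machinery that assembles box C/D snoRNPs, rose with shRNA 1 (0.45 ± 0.10, DESeq2 adjusted p of 0.000148) and fell with shRNA 2 (-0.49 ± 0.11, 3.15e-05) in the authors' deposited tables. POLR1D, a subunit of RNA polymerases I and III, was at -0.29 ± 0.12 (DESeq2 adjusted p of 0.0510) and 0.29 ± 0.11 (0.0425), per the authors' deposited tables. TCOF1 (treacle), which promotes rRNA synthesis, was at -0.23 ± 0.11 and -0.59 ± 0.11, and CD3EAP, an RNA polymerase I subunit, at -0.28 ± 0.15 and -0.38 ± 0.15, and both passed with shRNA 2 in the authors' deposited tables. The RNase P gene RPP25 was at 0.38 ± 0.16 and -0.39 ± 0.16, the exosome nuclease DIS3 at -0.26 ± 0.14 and -0.42 ± 0.14 and the exosome gene EXOSC1 at 0.25 ± 0.14 and 0.32 ± 0.14, of which RPP25 and DIS3 passed with shRNA 2 per the authors' deposited tables. COIL (coilin) was at 0.14 ± 0.14 and -0.18 ± 0.14 and passed in neither of the authors' deposited tables.

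NOP10, a core protein of the H/ACA particle and chosen here after its value was seen, fell with shRNA 1, at -2.03 ± 0.15 on the log2 scale (DESeq2 adjusted p of 3.11e-39) and was at 0.05 ± 0.14 with shRNA 2 (0.873) in the authors' deposited tables. Its partners DKC1 (above), NHP2 (-0.10 ± 0.09 and -0.12 ± 0.09) and GAR1 (-0.40 ± 0.17 and -0.07 ± 0.17) passed in neither of the authors' deposited tables.

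More cytosolic ribosomal protein genes were called higher than lower in both comparisons. Of 79 cytosolic ribosomal protein genes, shRNA 1 left 43 higher and 1 lower and shRNA 2 left 72 higher and 0 lower, by the DESeq2 calls of the authors' deposited tables. Their median log2 fold changes were 0.22 and 0.39. In the background, 9.80% of genes were called higher with shRNA 1 and 10.9% with shRNA 2. For the 79 mitochondrial ribosomal protein genes these counts were 4 higher and 16 lower and 3 higher and 15 lower, with medians of -0.09 and -0.14, from the authors' deposited tables. The lower calls were 20.3% and 19.0% of these 79, beside 14.8% and 18.1% of all genes tested. Of the 8979 genes with a mean at or above that of NOC4L, 20.9% were called lower with shRNA 1 and 27.7% with shRNA 2. The median mean was 1018 for the mitochondrial list and 1193 for the 8979 genes. For all genes tested it was 569 with shRNA 1 and 373 with shRNA 2. Beside the 8979 genes, the lower calls of the mitochondrial list were not in excess. The difference between the lists was not tested.

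**Figure D5:**
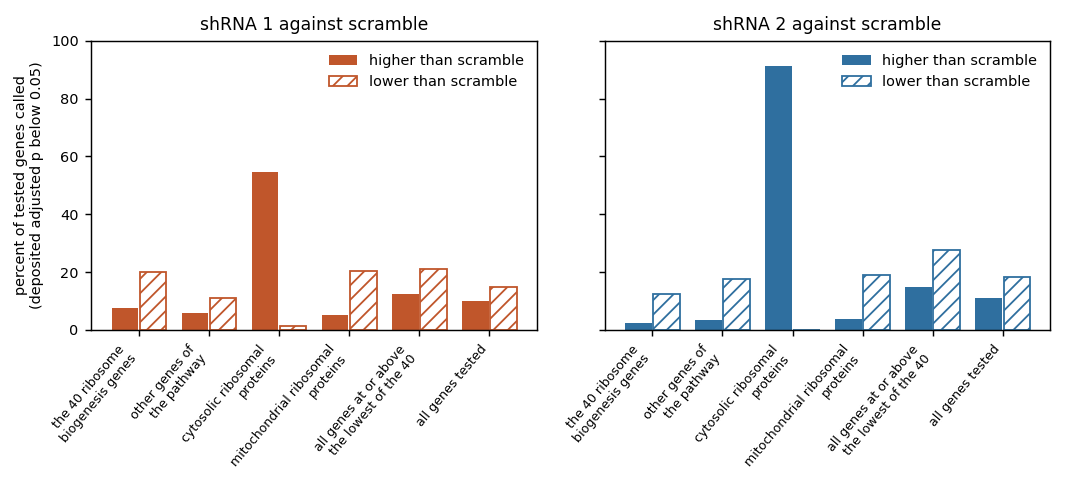
Percent of tested genes called higher (filled) or lower (hatched) than scramble at an adjusted p below 0.05, with shRNA 1 on the left and shRNA 2 on the right, for the 40 ribosome biogenesis genes, the other genes of the pathway, ribosomal protein genes and the background. Cytosolic ribosomal protein genes are mostly higher (43 and 72 of 79), whereas the 40 genes show 3 higher and 8 lower with shRNA 1 and 1 higher and 5 lower with shRNA 2.

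Calls were also counted by the E-box. With shRNA 1, 4 of the 16 ribosome biogenesis genes with CACGTG passed and 5 of the 17 without it, and with shRNA 2 these were 4 of 16 and 1 of 17, per the authors' deposited tables. Over all tested genes with a promoter window, 28.5% of 1283 genes with the letters and 27.4% of 8760 without them passed with shRNA 1. With shRNA 2 these shares were 38.1% and 36.8%.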

How the data were processed

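The authors deposited 2 tables of comparisons, shRNA 1 and shRNA 2 against scramble. Salmon 0.12.0, DESeq2 1.24.0 and GRCh38 are named in the submitters' processing notes, and no label states their settings or annotation. The mean over all libraries is a signal in normalised read counts, and the log2 fold changes with their SEs, the Wald score, the p-values and the adjusted p-values are as deposited, per the file headers. The means were identical in both tables. No value of a single library was in the columns used, so depth is unknown and no library was left out.

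Groups came from the hairpin in the sample titles. Fold changes are hairpin over scramble: dispersions solved from each table for 1129 genes differed by 0.0104 (median absolute natural log of their ratio) with the signs as deposited, against 0.138 to 0.303 with 1 or both signs turned. The main test was the DESeq2 result of the authors, at an adjusted p below 0.05. Genes with an adjusted p counted as tested (14488 with shRNA 1, 17054 with shRNA 2). The difference between hairpins was tested by z with Benjamini-Hochberg adjustment. This calculation was also run on simulated counts, with SEs taken from the dispersions put in, so the estimation of dispersion was not tried. Group means and the SE without scramble were solved from the means, fold changes and SEs.

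All 33095 identifiers occur in GENCODE 29, used for positions, exons and overlaps. One symbol of the wider list, PINX1, has 2 identifiers, 1 of them tested. Named genes were all 40, up to 3 per step of the wider list with the lowest larger p, IRF3 and MYC. NOP10, GAR1, SNU13, NOP53, GNL2, REXO5, EXOSC3 and EXOSC8 were added after their values were seen. The 40 genes and the lists were chosen with earlier results of these data known. Alternatives were a stricter threshold, a minimum change, adjustment over every gene with a p-value, recentring on the median of genes with a mean of at least 50 or 1000, and the SE of the difference. Python 3.11.15, pandas 2.3.3, scipy 1.17.1 and matplotlib 3.10.9 were used.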

Additional observations from a re-analysis of the deposited data

Results flagged for a closer look

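The following log2 fold changes differed between the hairpins (shRNA 2 minus shRNA 1) at an adjusted p below 0.05 in the z test over all genes, as 24.0% of all genes tested did. Among the 40 ribosome biogenesis genes these were DDX21 (0.70), PES1 (0.64), TSR1 (0.41), UTP20 (0.39), NOP56 (-0.48) and WDR43 (-0.56). The other named genes of the pathway were RUVBL2 (-0.94), RPP25 (-0.77), POLR1D (0.58), URB1 (0.53) and NOP9 (0.50). A further 6 were chosen after their values were seen: NOP10 (2.08), EXOSC3 (1.23), NOP53 (0.83), GNL2 (-0.89), EXOSC8 (-1.03) and REXO5 (-1.20). IRF3 itself differed by 1.35.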

How the results depend on the processing

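No paired analysis was possible because the tables hold no value of a single library, and for the same reason no library was left out in turn. The count of the 40 genes that passed with shRNA 1 (11) was 5 at an adjusted p below 0.01, 2 with a log2 change of at least 0.5 and 7 when adjusted over every gene with a p-value. With shRNA 2 (6) it was 3 at 0.01 and 1 with the minimum change. For the difference between hairpins (6) it was 3 with the minimum change and 16 with the SE without scramble libraries, which also gave 63 in place of 28 other pathway genes and 5715 in place of 3471 of all genes. Other pathway genes numbered 11 in place of 29 with shRNA 1 and 13 in place of 36 with shRNA 2 under the minimum change, and 19 with shRNA 2 at 0.01. All genes numbered 2002 in place of 3571 and 3191 in place of 4939 under the minimum change. Recentring on genes with a mean of at least 50 turned the sign of DKC1 (0.00243), IMP4 (0.0247) and RRP9 (0.00642) with shRNA 1 and of GNL3 (0.0275) with shRNA 2, and on genes with a mean of at least 1000 that of IMP4 (0.0170) and GNL3 (0.0524), none of which passed under any setting run. The cause of these changes, beyond the stricter or looser rule itself, was not tested. Depth is unknown and limits what is detectable in the least abundant genes, such as NOC4L.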

Other observations

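These genes outside the 40 were chosen after their values were seen. NOP53, a large subunit factor that recruits the exosome, was at 0.76 ± 0.09 with shRNA 2 and -0.07 ± 0.09 with shRNA 1 in the authors' deposited tables. GNL2, a GTPase of large subunit export, was at -0.85 ± 0.10 with shRNA 2 and 0.04 ± 0.10 with shRNA 1, as the authors' deposited tables give it. The exosome gene EXOSC8 was at -0.98 ± 0.20 with shRNA 2 and 0.05 ± 0.20 with shRNA 1, and EXOSC3 at -0.19 ± 0.17 with shRNA 2 and -1.41 ± 0.18 with shRNA 1, in the authors' deposited tables. REXO5, an RNA exonuclease, was at -1.24 ± 0.28 with shRNA 2 and -0.04 ± 0.27 with shRNA 1, per the authors' deposited tables.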
